A study of Rattus norvegicus with 6 samples.

Results

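The ATF4 amino acid stress response was described here through 33 genes, chosen by name for their place in that pathway, with earlier results of these data known. They were found as probe sets with a single gene symbol in the platform annotation, and 31 of the 33 had a value among 18166 genes tested. Expression of the eIF2alpha kinase gene Eif2ak2 and the sestrin gene Sesn2 is not analysed here. All 31 measured members lay above the background level of 5.74 on the log2 scale in at least 1 group, a level set as the 95th percentile of 1398 chemosensory receptor genes, which a kidney line is not known for expressing.

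The samples were NRK-52E cells, a rat epithelial line from kidney tubules, grown in a medium with fetal calf serum, antibiotics and L-glutamine. Total RNA was measured on 3 arrays labelled control and 3 labelled NICD1. In the NICD1 cells the intracellular domain of Notch1, the fragment that enters the nucleus after the receptor is cleaved, was overexpressed from pINDUCER21, an inducible lentiviral vector. The sources used here do not give the vector in the control cells, the use of an inducer, the time after induction or the number of clones. The labels also leave unsaid whether the replicates came from separate cultures. The p-values therefore reflect spread among these arrays that may be technical only, and the number of arrays limits the precision.

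Cells that run short of amino acids, or carry unfolded protein or other stress, phosphorylate the initiation factor eIF2alpha through kinases that each sense a different insult. General translation then slows while the messenger RNA of the transcription factor ATF4 is translated more. ATF4, often paired with a C/EBP factor, switches on genes for amino acid uptake, amino acid synthesis and transfer RNA charging, together with feedback regulators that end the response. Because ATF4 is controlled largely at translation, the level of its own transcript says little about how much protein is made. Kidney tubule cells handle large amounts of filtered amino acids and make serine and arginine for the body.

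ATF4 and its C/EBP partners bind a composite element with the core TGATGNAA, where N is any base. That core was searched on both strands of the RefSeq promoter table (build GRCr8, 250 bases before to 50 after each annotated start). Of the 31 members in that table, 6 (19.4%) held it in at least 1 promoter, against 4.16% of its 27457 genes. Slc1a5 and Aldh18a1 have no entry, while Eif2ak2 and Sesn2 have one, so these are not the 31 measured members. The windows around these 6 matches are shown because they are the members whose promoter carries the letters of the ATF4 element. They run 5′ to 3′ on the gene's strand with the match in capitals, and a match on the opposite strand reads in reverse complement.
Nupr1: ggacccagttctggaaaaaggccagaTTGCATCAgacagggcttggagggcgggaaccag
Trib3: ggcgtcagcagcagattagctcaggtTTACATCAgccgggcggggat
Chac1: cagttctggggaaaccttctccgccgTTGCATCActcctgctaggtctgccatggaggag
Slc7a1: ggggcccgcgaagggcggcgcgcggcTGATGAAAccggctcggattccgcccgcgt
Pycr1: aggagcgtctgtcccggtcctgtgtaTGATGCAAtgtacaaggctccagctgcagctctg
Pck2: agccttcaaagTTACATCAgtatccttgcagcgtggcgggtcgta

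These windows lie at chr1:190645923-190645982 (minus strand) for Nupr1, chr3:161275534-161275580 (minus) for Trib3, chr3:126795938-126795997 (plus) for Chac1, chr12:11664432-11664487 (plus) for Slc7a1, chr10:106420910-106420969 (minus) for Pycr1 and chr15:32997603-32997647 (plus) for Pck2. The match in Trib3 ended 14 bases before the annotated start, and that in Slc7a1 ended 23 bases before it. In Nupr1 the distance was 48 bases, in Pycr1 124, in Chac1 160 and in Pck2 232. A match describes the letters in the window and does not show binding, and a window without one says nothing about the factor.

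The groups were compared by limma on log2 intensity, and a gene was said to rise or fall where its Benjamini-Hochberg adjusted p over all genes was under 0.05. Differences are NICD1 minus control on the log2 scale. Among the 31 members with a value, 12 (38.7%) rose and 1 fell, while 18 did not pass. Over all genes tested, 14.7% changed, 7.45% upward and 7.22% downward, and at an unadjusted limma p under 0.05 the shares were 13.9% upward and 12.9% downward. The median difference was 0.21 over the members and 0.01 over all genes. The 3 NICD1 values all lay above the 3 control values for 22 members, against 17% of all genes, and all below for 2, against 15.7%. Without 1 array at a time the count of rises ranged from 9 to 13, and the single fall was called each time.

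**Figure D1:**
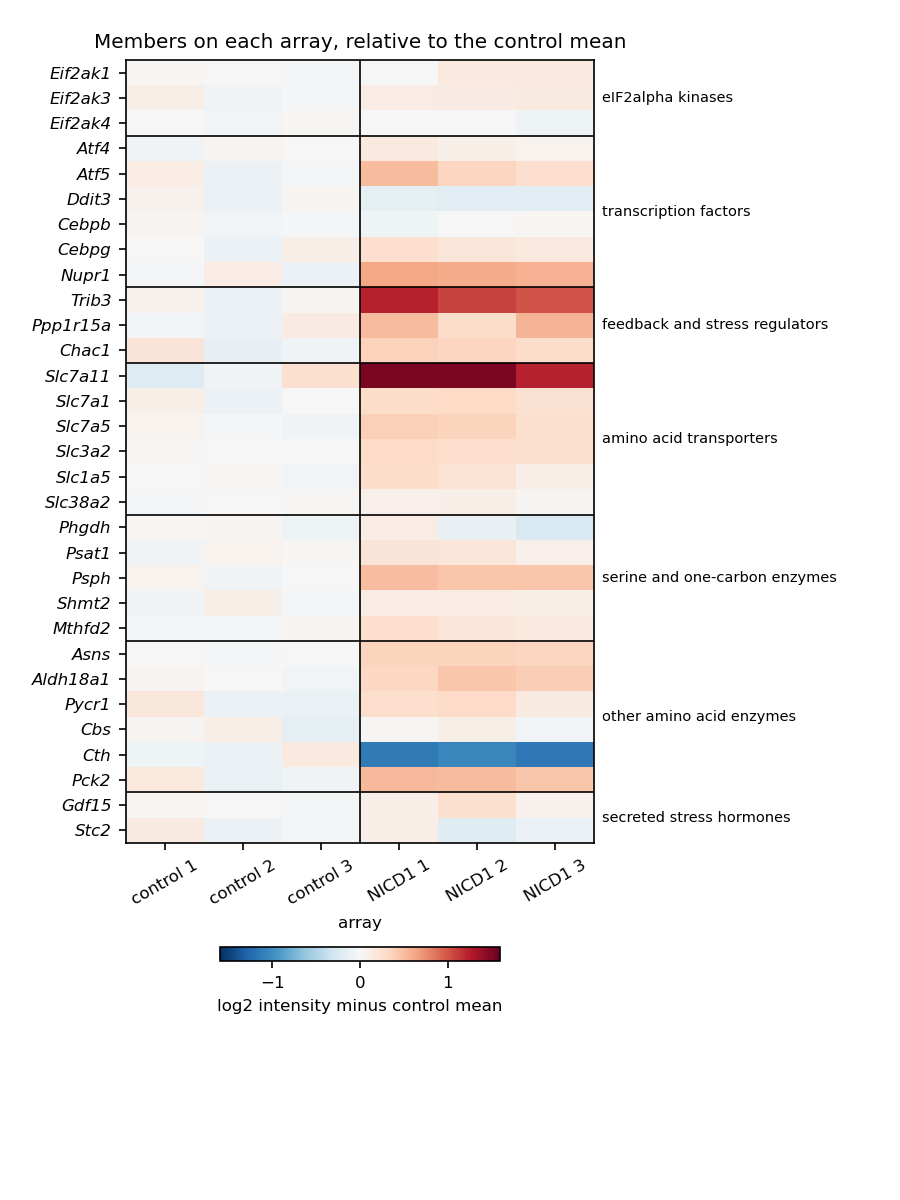
Each cell is the log2 intensity of 1 member on 1 array minus that gene's control mean, for 31 members grouped by role (rows) and 6 arrays (columns), red above and blue below. Trib3 and Slc7a11 are the strongest red rows on the NICD1 arrays, and Cth is the strongest blue row.

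Before the members, the labels and the cell type were checked. Notch1 rose by 0.66 (SE 0.081, limma adjusted p = 0.00181), and the Notch target Hey1 rose by 3.42 (SE 0.135, limma adjusted p = 1.48e-05). Of 14 measured renal epithelial markers, 5 lay above background, and Krt18, Cdh1, Cdh6, Cdh16, Epcam, Pax8, Lrp2, Cubn and Slc34a1 did not. Their summed linear intensity ran from 1947 to 2022 on control arrays and from 3569 to 3774 on NICD1 arrays, with rises of Krt8 (1.08) and Cdh2 (1.32). The leukocyte sum was 2503 to 2578 against 2736 to 2842 over 6 genes. Most of it came from Cd14, with log2 means of 11.19 in control and 11.32 in NICD1 cells. Its difference of 0.13 did not pass (limma adjusted p = 0.153). Cd68 rose by 0.27, and Ptprc, Cd3e, Itgam and Adgre1 were not above background. The fibroblast and pericyte sum was 584 to 691 against 778 to 841 over 7 genes, with Col1a1 risen by 0.90, Pdgfrb at -0.24 without passing, and Pdgfra, Dcn and Lum not above background. The endothelial sum was 300 to 323 against 240 to 249 over 4 genes, with Tek fallen (-0.57) and Cdh5, Emcn and Vwf not above background. For podocyte markers the sum over 3 genes was 211 to 248 against 254 to 260, with Wt1 risen by 0.55 and Nphs1 (-0.07) and Podxl (-0.09) not passing. The part of these marker shifts in the results was not tested.

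The 3 measured kinases that phosphorylate eIF2alpha did not pass. Over all genes 14.7% changed, a share at which 3 genes may well hold no call. At an unadjusted limma p under 0.05, 0 were higher and 0 lower, against 13.9% and 12.9% of all genes. Eif2ak3 encodes PERK, the kinase of the endoplasmic reticulum, and measured 9.10, 8.95 and 8.99 on the control arrays and 9.13, 9.14 and 9.15 on the NICD1 arrays. The groups did not overlap, but the difference of 0.13 (95% interval -0.01 to 0.26) did not pass (limma adjusted p = 0.222). Eif2ak1, the haem-regulated kinase that also relays mitochondrial stress, differed by 0.10 (-0.05 to 0.25), with NICD1 replicate 1 inside the control range. For Eif2ak4, which encodes GCN2, the sensor of uncharged transfer RNA, the difference was -0.02 (-0.15 to 0.10), and the groups overlapped. These are transcript levels and carry no information on kinase activity.

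Of 6 transcription factors, Nupr1 and Atf5 rose (33.3%, against 7.45% of all genes), 0 fell and 4 did not pass. Nupr1, a small stress-induced chromatin protein, measured 10.32, 10.47 and 10.26 in control and 10.97, 10.94 and 10.90 in NICD1 cells. Every NICD1 array was above every control array, and the rise was 0.59 (SE 0.068, 1.51-fold, limma adjusted p = 0.00129). Atf5, a relative of ATF4 that is also controlled at translation and acts in mitochondrial stress, measured 9.32, 9.10 and 9.17 against 9.71, 9.54 and 9.47. It rose by 0.38 (SE 0.087, limma adjusted p = 0.0280), again without overlap. That call was lost when either control replicate 2 (adjusted p = 0.0917) or 3 (0.0890) was left out, and likewise for NICD1 replicate 1 (0.0808) or 2 (0.0697).

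Atf4 itself measured 12.28, 12.38 and 12.35 in control and 12.50, 12.44 and 12.39 in NICD1 cells. The lowest NICD1 array lay just above the highest control array, and the difference of 0.11 (95% interval -0.03 to 0.24) did not pass (limma adjusted p = 0.305). Cebpg, a C/EBP partner of ATF4, differed by 0.21 (0.05 to 0.36; limma adjusted p = 0.0887), with no overlap of the groups. Cebpb, another C/EBP partner, differed by -0.01 (-0.14 to 0.12), and its groups overlapped. Ddit3, which encodes the pro-apoptotic factor CHOP, stood on the other side. Its values were 8.01, 7.83 and 7.98 in control and 7.78, 7.76 and 7.76 in NICD1 cells, all 3 NICD1 arrays below the control arrays. The difference of -0.18 (-0.33 to -0.03) did not pass (limma adjusted p = 0.127, unadjusted 0.0282).

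Of 3 measured feedback and stress regulators, Trib3 and Ppp1r15a rose (66.7%, against 7.45% of all genes) and Chac1 did not pass. Trib3 encodes a pseudokinase that binds ATF4 and CHOP and restrains them, and it measured 8.82, 8.66 and 8.79 in control and 9.98, 9.83 and 9.76 in NICD1 cells. The groups stood far apart on every array, and the rise was 1.10 (SE 0.076, 2.15-fold, limma adjusted p = 0.000122). Ppp1r15a encodes GADD34, which directs a phosphatase to eIF2alpha and so ends the translational block. It measured 8.02, 7.97 and 8.19 against 8.56, 8.36 and 8.60, and it rose by 0.44 (SE 0.089, limma adjusted p = 0.0161). Its groups did not overlap, yet the limma adjusted p passed 0.05 on leaving out control replicate 1 (0.0542) or 2 (0.0611), and on leaving out NICD1 replicate 1 (0.0612) or 3 (0.0570). Chac1, an enzyme that degrades glutathione, measured 9.03, 8.69 and 8.76 in control and 9.19, 9.17 and 9.12 in NICD1 cells. The difference of 0.34 (SE 0.092) missed the threshold (limma adjusted p = 0.0534), and control replicate 1 was the control array nearest to the NICD1 values. Without that array the difference was 0.44 and passed (limma adjusted p = 0.00613), and without any other 1 array it did not. With all arrays kept, Chac1 passed under some other settings, given in the closing section.

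**Figure D2:**
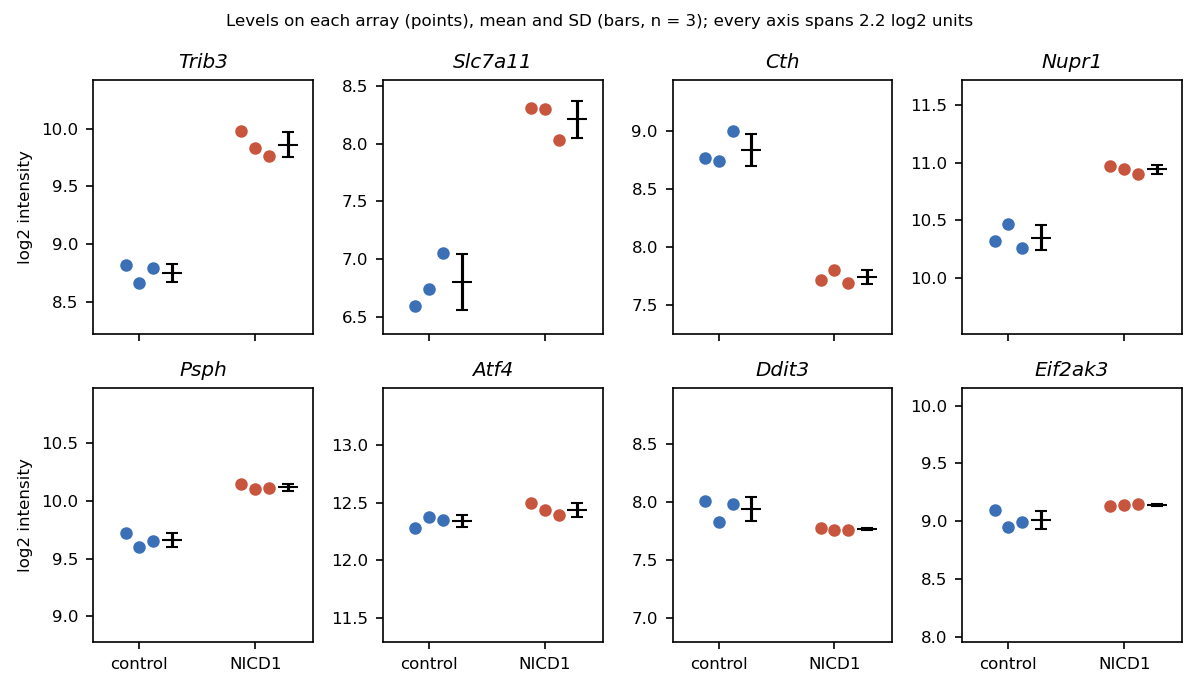
Points are log2 intensities of 8 members on the 3 control (blue) and 3 NICD1 (red) arrays, bars are the mean and SD (n = 3), and every vertical axis spans 2.2 log2 units around the gene's own range. Trib3 and Slc7a11 stand higher and Cth stands lower on the NICD1 arrays, while Atf4 (0.11), Ddit3 (-0.18) and Eif2ak3 (0.13) did not pass.

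All 6 amino acid transporter genes had NICD1 values above every control value, where 17% of all genes did. Of these 6, 4 rose (66.7%, against 7.45% of all genes). Slc7a11 encodes xCT, which imports cystine in exchange for glutamate, and it measured 6.59, 6.74 and 7.05 in control and 8.31, 8.30 and 8.03 in NICD1 cells. Its control arrays were the most spread of any member (SD 0.24, n = 3), but the gap between groups was wider, and the rise of 1.42 (SE 0.132, 2.67-fold, limma adjusted p = 0.000467) was the largest of the 31. Slc3a2 encodes the heavy chain 4F2hc, which pairs with xCT and with LAT1 at the cell surface. It measured 11.99, 11.96 and 11.96 against 12.28, 12.25 and 12.22, and rose by 0.28 (SE 0.049, limma adjusted p = 0.00928). Slc7a5, the gene of LAT1 and so of leucine entry, measured 11.79, 11.71 and 11.68 against 12.11, 12.09 and 11.98. It rose by 0.33 (SE 0.061, limma adjusted p = 0.0115), with NICD1 replicate 3 the lowest of its group.

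Slc7a1, which encodes the arginine and lysine transporter CAT1, measured 11.56, 11.37 and 11.45 in control and 11.76, 11.78 and 11.70 in NICD1 cells. The groups did not overlap, and it rose by 0.29 (SE 0.065, limma adjusted p = 0.0268), a call that ended without any 1 array except control replicate 1 (adjusted p from 0.0601 to 0.0931). The glutamine carrier gene Slc1a5 differed by 0.21 (95% interval 0.06 to 0.36; limma adjusted p = 0.0748). For Slc38a2, which encodes the adaptive small neutral amino acid carrier SNAT2, the difference was 0.08 (-0.04 to 0.19; limma adjusted p = 0.411). Neither of these passed.

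Of 5 serine and one-carbon enzymes, Psph rose (20%, against 7.45% of all genes) and 4 did not pass. The serine pathway runs from 3-phosphoglycerate through Phgdh, Psat1 and Psph, in that order, and Shmt2 and Mthfd2 then move serine's carbon into mitochondrial folate. Psph, the phosphatase of the last step, measured 9.72, 9.60 and 9.65 in control and 10.15, 10.10 and 10.11 in NICD1 cells. The arrays of each group lay close together, and the rise was 0.46 (SE 0.055, 1.38-fold, limma adjusted p = 0.00142). The aminotransferase Psat1 differed by 0.16 (95% interval 0.02 to 0.30; limma adjusted p = 0.146). Phgdh, the dehydrogenase of the first step, measured 7.85, 7.86 and 7.74 in control and 7.94, 7.70 and 7.58 in NICD1 cells. Its NICD1 arrays were spread on both sides of the control range, with a difference of -0.08 (-0.30 to 0.15). Shmt2 differed by 0.11 (-0.03 to 0.25). Mthfd2 differed by 0.21 (0.07 to 0.34; limma adjusted p = 0.0557), and its 2 probe sets gave 0.22 and 0.19.

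The 6 other enzymes of amino acid metabolism held 3 rises (50%, against 7.45% of all genes) and the single fall. Asns, the asparagine synthetase that is a standard readout of ATF4, measured 10.88, 10.85 and 10.87 in control and 11.23, 11.23 and 11.21 in NICD1 cells. The arrays of each group nearly coincided, and the rise was 0.35 (SE 0.048, 1.28-fold, limma adjusted p = 0.00275). Aldh18a1, which makes the proline and ornithine precursor pyrroline-5-carboxylate from glutamate, measured 10.68, 10.62 and 10.59 against 10.96, 11.08 and 11.03. It rose by 0.39 (SE 0.057, limma adjusted p = 0.00416). Pycr1 acts after Aldh18a1 in proline synthesis, and its difference of 0.25 (95% interval 0.03 to 0.46) did not pass (limma adjusted p = 0.140). Control replicate 1 lay inside the NICD1 range for Pycr1, and without that array the difference was 0.34 and passed (limma adjusted p = 0.0277). Pck2, the mitochondrial phosphoenolpyruvate carboxykinase, measured 10.25, 9.97 and 10.03 against 10.60, 10.59 and 10.52. The groups did not overlap, and it rose by 0.49 (SE 0.082, 1.41-fold, limma adjusted p = 0.00718).

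Cth went the other way. It encodes cystathionine gamma-lyase, the enzyme that releases cysteine at the end of the transsulfuration route from methionine, and it is also listed among ATF4 targets. Its values were 8.77, 8.74 and 9.00 on the control arrays and 7.71, 7.80 and 7.69 on the NICD1 arrays. All 3 NICD1 arrays stood far below the controls, and Cth fell by 1.10 (SE 0.081), 2.14-fold lower (limma adjusted p = 0.000159). Cbs, which encodes the preceding enzyme of that route, measured 6.02, 6.06 and 5.81 in control and 5.99, 6.06 and 5.92 in NICD1 cells. These values lay near background and overlapped, with a difference of 0.03 (95% interval -0.17 to 0.22). Across the 2 routes to cysteine, the import gene Slc7a11 was thus higher and the synthesis gene Cth lower in the same NICD1 cells.

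**Figure D3:**
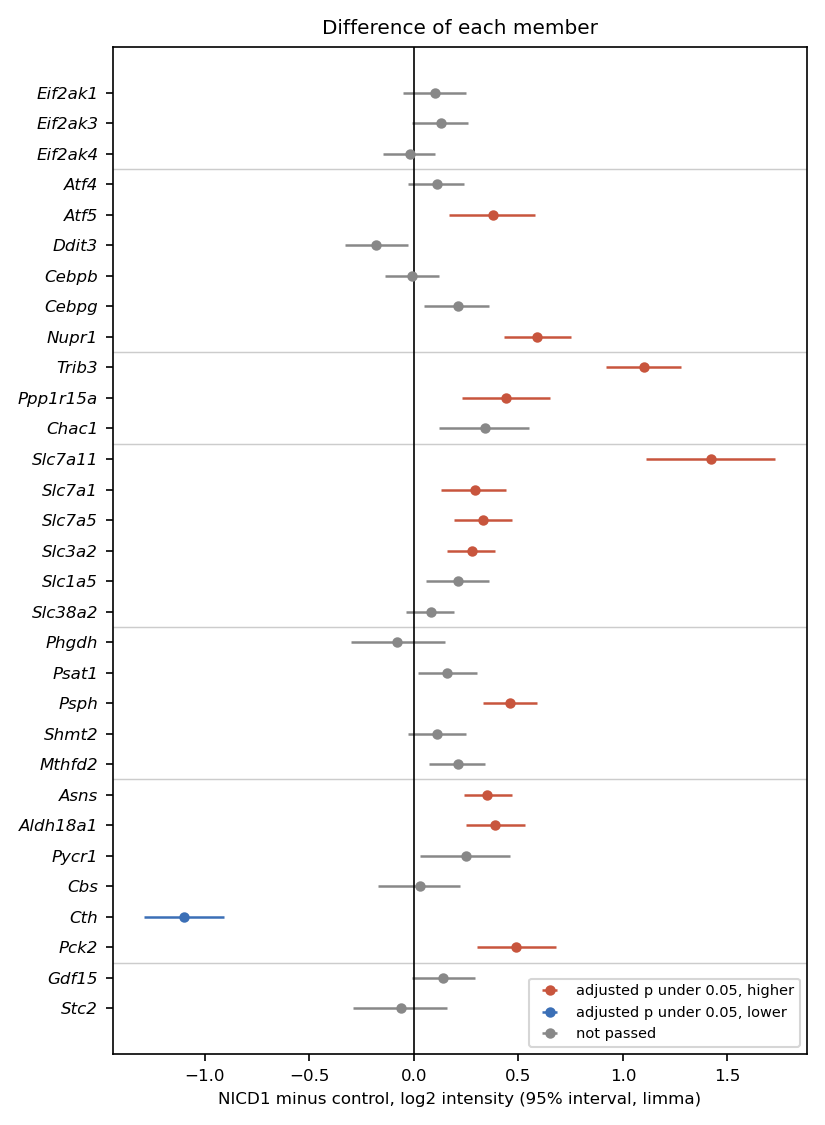
Points are NICD1 minus control differences of the 31 members in log2 intensity, bars are 95% intervals from limma, and rows are grouped by role. The 12 genes that rose are red, Cth is blue at -1.10, and the 18 that did not pass are grey, most of them to the right of 0.

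Neither of the 2 secreted stress hormones passed, where 14.7% of all genes changed. The same held at an unadjusted limma p under 0.05. Gdf15, a circulating signal of cell stress that reduces appetite, measured 6.16, 6.13 and 6.10 in control and 6.23, 6.38 and 6.20 in NICD1 cells. The groups did not overlap but stood close together and near background, with a difference of 0.14 (95% interval -0.01 to 0.29; limma adjusted p = 0.221) that was 0.08 without NICD1 replicate 2. Stc2, the glycoprotein stanniocalcin-2, differed by -0.06 (-0.29 to 0.16), and its groups overlapped.

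The members also varied among arrays of 1 group. NICD1 replicate 3 was the lowest of the NICD1 arrays for 23 of 31 members (74.2%), where it was lowest for 31.4% of all genes. Control replicate 1 was the highest control array for 17 members (54.8%), against 43.2% of all genes. The median over the members of the value minus the control mean was 0.27, 0.22 and 0.15 on NICD1 replicates 1, 2 and 3, and 0.03, -0.04 and -0.01 on the control replicates. All genes tested had medians within 0.02 of 0 on each array. The offsets within a group were thus smaller than the offset between groups.

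Further ATF4 targets, beyond the 33, held rises and no fall, also at an unadjusted limma p under 0.05. Of 23 listed, 21 had a value, and 11 of these rose (52.4%, against 7.45% of all genes). Of the rest, 0 fell and 10 did not pass, and the median difference of the list was 0.22. Above background lay 17 of the 21, and the others were all among those that did not pass. Vldlr, a receptor for very low density lipoprotein, rose by 1.59 (SE 0.083, limma adjusted p = 3.65e-05). Ddit4, also called REDD1, an inhibitor of mTORC1 that responds to several stresses including low oxygen, measured 8.73, 8.65 and 8.54 in control and 9.95, 10.03 and 9.91 in NICD1 cells, a rise of 1.32 (SE 0.069). The endoplasmic reticulum oxidase Ero1a, which is also induced by low oxygen, rose by 1.10 (SE 0.057). These 3 had the smallest adjusted p of the list, and their groups did not overlap.

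Cytosolic aminoacyl-tRNA synthetases, which charge transfer RNA and many of which ATF4 induces, showed small positive differences. Among 19 with a value, 5 rose (26.3%, against 7.45% of all genes), 14 did not pass and 0 fell. At an unadjusted limma p under 0.05, 10 were higher and 0 lower, against 13.9% and 12.9% of all genes. The median was 0.13, and 18 differences were positive. Tars1, the threonyl enzyme, rose by 0.25 (SE 0.050, limma adjusted p = 0.0151), Cars1, the cysteinyl enzyme, by 0.26 (SE 0.051) and Iars1, the isoleucyl enzyme, by 0.20 (SE 0.048). The count of calls depended on every array. It was 3 without control replicate 1, 2 without control replicate 3, 1 without NICD1 replicate 3, and 0 on leaving out control replicate 2 or either of NICD1 replicates 1 and 2.

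The machinery around eIF2 itself held no larger share of calls than all genes. The list of 16 measured genes held the eIF2 complex, its exchange factor eIF2B, the phosphatase, and other genes such as kinase regulators. Of these 16, 1 rose (6.25%) and 0 fell. The shares over all genes were 7.45% and 7.22%. At an unadjusted limma p under 0.05, 3 were higher and 2 lower, against 13.9% and 12.9% of all genes. The median difference was -0.01. The gene that rose was Eif2b2, a regulatory subunit of eIF2B, by 0.25 (SE 0.049, limma adjusted p = 0.0132). That call was lost without any 1 of the NICD1 arrays. Among 11 other serine and folate enzymes, 1 rose and 2 fell (27.3%, against 14.7% of all genes), with a median of -0.05. The mitochondrial folate carrier Slc25a32 rose by 0.42 (SE 0.052), while the cytosolic hydroxymethyltransferase Shmt1 (-0.39, SE 0.056) and the sideroflexin Sfxn3 (-0.28, SE 0.058) fell. The call of Sfxn3 was lost without NICD1 replicate 1 or NICD1 replicate 3.

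Of 20 genes of amino acid sensing upstream of mTORC1, with parts of mTORC1 itself included, 3 rose and 1 fell (20%, against 14.7% of all genes). The other 16 did not pass, and the median of 0.01 was that of all genes. Castor1, which encodes an arginine sensor, measured 8.92, 8.91 and 8.90 in control and 9.46, 9.63 and 9.57 in NICD1 cells, a rise of 0.64 (SE 0.060, limma adjusted p = 0.000493). Fnip2, a partner of folliculin, rose by 0.59 (SE 0.079). Deptor, an inhibitor of the mTOR kinase, measured 10.63, 10.64 and 10.54 against 9.57, 9.69 and 9.67, and fell by 0.96 (SE 0.059, limma adjusted p = 7.18e-05). For Castor1, Fnip2 and Deptor the groups did not overlap.

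Most genes of the chaperone branches of the unfolded protein response, driven by ATF6 and XBP1, did not pass. Of 17 measured genes, sensors included, 3 rose and 2 fell (29.4%, against 14.7% of all genes). The other 12 did not pass, and the median was 0.04. Dnajb9, a co-chaperone of the endoplasmic reticulum, rose by 0.33 (SE 0.051) and the sensor Atf6 by 0.34 (SE 0.061), and Sdf2l1, another protein of that compartment, fell by 0.39 (SE 0.064). In the list of glutathione synthesis and cystine use, 2 of 8 rose and 1 fell (37.5%, against 14.7% of all genes), with a median of 0.01. Gss, the glutathione synthetase, rose by 0.57 (SE 0.050, limma adjusted p = 0.000340), the thioredoxin reductase Txnrd1, an NRF2 target like Slc7a11, rose by 0.34 (SE 0.058), and Slc7a9, a subunit of the apical cystine transporter, fell by 0.44 (SE 0.068).

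**Figure D4:**
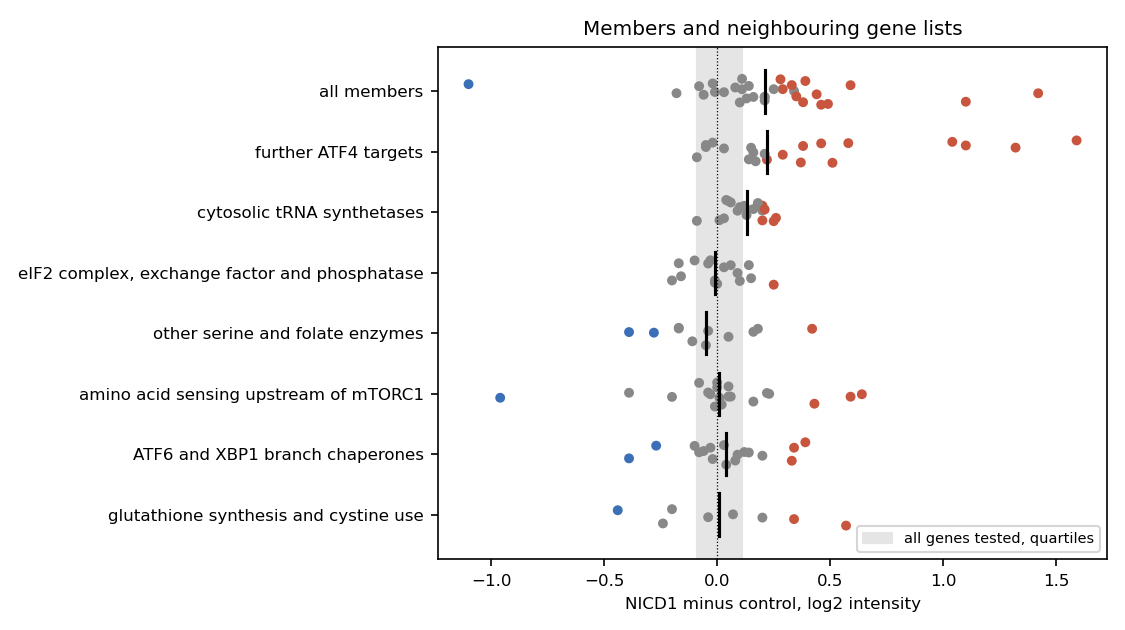
Each point is the NICD1 minus control difference of 1 gene in log2 intensity, red where it rose, blue where it fell and grey where it did not pass, for the 31 members and 7 neighbouring lists. Black lines are list medians (0.21 for the members, 0.22 for further ATF4 targets), and the grey band spans the quartiles of all genes tested, -0.09 to 0.11.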

How the data were processed

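RNA of 3 control and 3 NICD1 samples was measured on single-colour Affymetrix arrays. Per the submitters' processing notes, the deposited intensity values come from RMA in Affymetrix Expression Console. RMA equalises the distribution between arrays, which hides any change common to most transcripts. Array type, versions and build: not given in the sources used here. Array medians were 57.5 to 60.1 on a linear scale, so log2 was taken without a pseudocount.

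Of 36685 probe sets, 18511 had 1 symbol, 575 several and 17599 none. Probe sets with 1 symbol were averaged into 18166 genes, without a filter on low values. Groups, from the sample titles, were tested in R 4.3.3 with limma 3.58.1 (lmFit, eBayes, two-sided, Benjamini-Hochberg over all genes). The members and lists were chosen with earlier results of these data known. For single genes, 3 arrays against 3 allow an exact permutation p no lower than 0.1, so none is given. Named genes were all measured members and, of each other list, the changed genes lowest in adjusted p, at most 3, or the 1 lowest in p where none changed. The markers that changed are named beside their sums, and the genes named for a promoter match in the closing section were chosen after their values were seen. On simulated data for this comparison over 18166 genes, 100 genes were changed by 0.5 and 100 by 1 (log2). The noise was normal and independent, with each gene's limma SD. There 81% of changes of 0.5 and 98% of changes of 1 were recovered, and 5 of 184 calls were false. The real comparison called 2666 genes, and most member differences were smaller than 0.5, so these rates may not hold for them. The 15 alternatives comprised 9 settings and leaving out each of 6 arrays. Symbols and promoters came from RefSeq (GRCr8). Figures were drawn with matplotlib 3.10.9.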

Additional observations from a re-analysis of the deposited data

How the results depend on the processing

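Of 465 member values under 15 alternatives, 418 kept their direction and side of the threshold, 20 newly passed, 18 no longer passed and 9 changed sign. Of the 13 members that changed, 9 were called under every one of the 15 alternatives. The exceptions were Atf5, Ppp1r15a, Slc7a1 and, at a threshold of 0.01, Slc7a5. The count of members that rose was 18 with an intensity trend and robust prior and 8 at the threshold of 0.01. With all arrays kept, Chac1 newly passed under median centring (limma adjusted p = 0.0453), second quantile normalisation (0.0456) and array weights (0.0155). It also did without the dimmest 30% of genes (0.0268), with that trend (0.00796) and with 16 added before log2 (0.0241). It did not with a replicate block (0.0686), the brightest probe set per gene (0.0536) or the threshold of 0.01. Mthfd2, Cebpg, Slc1a5, Psat1 and Pycr1 also newly passed under some alternatives.

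Sign changes occurred for values near 0. Cebpb was 0.01 with array weights, 0.02 without control replicate 1 and 0.02 without NICD1 replicate 1. Stc2 was 0.00 without control replicate 1 or NICD1 replicate 2, Cbs was -0.05 without control replicate 3 and -0.01 without NICD1 replicate 2, and Eif2ak4 and Phgdh were 0.00 without NICD1 replicate 3. Over the runs that left out 1 array, Cebpb reached 0.02, Stc2 ran from -0.14 to 0.00, Cbs from -0.05 to 0.07, Eif2ak4 from -0.04 to 0.00 and Phgdh from -0.18 to 0.00. The cause was not tested.

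Without the dimmest 30% of genes 8 synthetases, 3 eIF2 genes and 5 glutathione genes were called, with an intensity trend 10, 4 and 6, and with 16 added before log2 2 eIF2 genes and 5 glutathione genes. Median centring gave 2 eIF2 genes. At a threshold of 0.01, which passes fewer genes by construction, 1473 genes, 5 further ATF4 targets, 0 synthetases, 0 eIF2 genes and 3 chaperone genes were called. Leaving out 1 array gave 0 to 3 synthetases, 0 to 1 eIF2 genes, 1830 to 2486 genes in all, 9 to 13 member rises and 1 member fall.

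The replicate numbers showed no sign of pairing, with correlations of -0.03, -0.01 and -0.01 between same-numbered deviations from the group means. The labels do not say whether same-numbered samples were handled together. With the replicate number as a block 1919 genes were called, with 11 member rises and 1 fall, Slc7a1 was lost (limma adjusted p = 0.0685), and 0 synthetases and 0 eIF2 genes were called. Array medians over all genes ran from 6.75 to 6.78, and signal near background limits Cbs, Gdf15 and Stc2.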

Other observations

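The core TGATGNAA fell on the gene lists unevenly. Among 17 cytosolic aminoacyl-tRNA synthetases with a promoter in the table, 7 (41.2%) held it, against 4.16% of all its genes. These 7 differed by 0.10 to 0.26 between NICD1 and control cells, with a median of 0.20. The 10 without it differed by -0.09 to 0.18, with a median of 0.07. The 5 synthetases that rose, Cars1, Iars1, Mars1, Tars1 and Yars1, all held the core, as did Aars1 (0.10) and Nars1 (0.20), which did not pass. This grouping was noticed after the values were seen and was given no test, and the calls among synthetases were lost in part or in full when 1 array was left out. The windows of 4 synthetases with a match before the annotated start follow, 5′ to 3′ on the gene's strand (RefSeq, GRCr8) with the match in capitals, because they share the letters TTGCATCA.
Aars1: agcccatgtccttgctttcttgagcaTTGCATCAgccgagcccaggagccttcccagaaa
Iars1: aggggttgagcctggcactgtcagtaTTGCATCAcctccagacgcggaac
Mars1: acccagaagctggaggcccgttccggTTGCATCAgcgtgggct
Tars1: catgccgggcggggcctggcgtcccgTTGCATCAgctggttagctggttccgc

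They lie at chr19:55908344-55908403 (plus strand), chr17:15193653-15193702 (minus), chr7:65023754-65023796 (minus) and chr2:62114803-62114855 (minus).

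In the further ATF4 targets the order was the opposite. The 5 with the core (Herpud1, Fgf21, Jdp2, Slc1a4 and Got1) had a median difference of 0.03, and the 9 without it 0.37. That 0.03 was the value of Fgf21, which was not above background. The 5 ran from -0.09 to 0.58, and the 9 from 0.14 to 1.59. Among members the 6 with the core had a median of 0.42, from 0.25 to 1.10, and the 23 without it 0.13, from -1.10 to 1.42, so that both Slc7a11 and Cth were without a match in the window. Of 19 genes of the eIF2 list with a promoter in the table, 2 (10.5%) held it. These were Eif2s2 (0.06) and Ppp1r15b (0.10), which did not pass, while Eif2b2, which rose, was without it. Of 13 other serine and folate genes, 16 genes of the amino acid sensing list, 13 chaperone genes and 9 glutathione genes, 0 held it.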
